A study of Homo sapiens with 24 samples.

Results

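The genes described here are the SR proteins, the hnRNPs, TRA2A, TRA2B and the CLK kinases. Members were taken by symbol from the gene names of the array's probes: SRSF followed by a number, HNRNP with any ending, TRA2A, TRA2B and CLK1 to CLK4, leaving out pseudogenes and antisense RNAs. This gave 41 of the 20046 genes with a probe of 1 symbol, made up of 12 SR proteins, 2 TRA2 proteins, 24 hnRNPs and 3 CLK kinases. CLK2 was not analysed here. Of the 41, 39 passed the filter on dim probes, out of 10455 genes tested. SRSF12 and HNRNPCL1 were not detected on enough arrays to be tested. Of the 39, 38 were detected on all 24 arrays.

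The study treated a pair of diffuse large B cell lymphoma lines with trabectedin, an anticancer compound that alkylates DNA, or with DMSO. There were 8 groups of 3 arrays: U2932 after 8 h of trabectedin and after 8 h of DMSO, U2932 after 24 h of trabectedin and after 24 h of DMSO, and the same 4 groups of OCI-Ly7. In the usual division by cell of origin, U2932 is an activated B cell-like line and OCI-Ly7 is germinal centre B cell-like. No dose is stated in the labels, nor whether the 3 arrays of a group came from different cultures, so p-values reflect array-to-array spread, which may be technical.

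SR proteins bind exonic sequences in pre-mRNA and recruit the splicing machinery through domains rich in arginine and serine. The hnRNPs are a larger set of RNA-binding proteins that coat nascent transcripts, often repress the splice sites beside which they bind, and also act in RNA export, stability and translation. CLK kinases phosphorylate SR proteins and so release them from nuclear speckles, the stores of splicing factors, and many genes of these families have unspliced or decay-prone isoforms through which their own level is set.

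Total RNA was measured as fluorescence of bead probes, and every value below is a normalised log2 intensity unless stated, with changes given as trabectedin minus DMSO ± the standard error from limma (n = 3 per group). A gene was called at a Benjamini-Hochberg adjusted p under 0.05 over all genes tested, and is said to have risen or fallen only then. Arrays of U2932 were dimmer after trabectedin, with a mean probe intensity of 460 ± 5.54 (SD, n = 3) against 539 ± 17.8 in DMSO at 8 h, and 365 ± 21.6 against 543 ± 11.8 at 24 h. The corresponding values in OCI-Ly7 were 365 ± 53.7 against 326 ± 19.5 and 235 ± 45.0 against 366 ± 83.3. Quantile normalisation makes the arrays' distributions equal. Scaling each array to its median instead moved the median change of all genes to -0.43 and -0.90 in U2932 at 8 h and 24 h, and to 0.05 and -0.40 in OCI-Ly7. Which scale is nearer the true change of RNA per cell was not tested, and a change that turns its sign with the scale is named as such. In bulk RNA, fewer cells and less RNA per cell cannot be told apart.

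All 12 U2932 arrays were on 1 chip and 9 OCI-Ly7 arrays on a second, while the 3 arrays of OCI-Ly7 after 24 h of trabectedin were alone on another. Chip and trabectedin therefore cannot be told apart in OCI-Ly7 at 24 h, nor in any difference that uses those arrays, and chip and line cannot be told apart. Of the B cell markers, CD79A, CD79B, MS4A1 and CD22 were detected on all 24 arrays and PAX5 on none. PTPRC was detected on 13 arrays, 11 of them DMSO, and BLNK on 10, all DMSO. The summed linear level of the 7 measured B cell genes ranged from 7834 to 8368 in U2932 after 8 h of trabectedin against 10952 to 11265 in DMSO, and from 6940 to 7396 against 11220 to 11573 at 24 h. In OCI-Ly7 it ranged from 10975 to 12582 against 14101 to 17062 at 8 h, and from 8383 to 10088 against 11204 to 16383 at 24 h. The myeloid list moved with the drug: the summed linear level of its 5 genes ranged from 826 to 914 in U2932 after 8 h of trabectedin against 153 to 157 in DMSO, and from 1648 to 1759 against 154 to 158 at 24 h. In OCI-Ly7 the sum ranged from 302 to 343 against 139 to 157 at 8 h, and from 500 to 762 against 141 to 168 at 24 h. CD14 was detected on 20 arrays, FCER1G on 8 and LYZ on 3, while CSF1R and ITGAM were detected on none. Of the T cell list CD2 was detected on 1 array and CD3D, CD3E and CD3G on none. Of the fibroblast list DCN was detected on 7 arrays and COL1A1, COL1A2 and PDGFRB on none. EPCAM was detected on the 12 U2932 arrays, with KRT8, KRT18 and CDH1 on none. The part of these markers in the changes below was not tested.

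The SR, hnRNP, TRA2 and CLK genes moved in both directions. Counted on the brightest probe of each gene, more hnRNPs fell than rose in all 4 trabectedin effects. More of all genes tested also fell than rose in each effect. Among the 39 tested members, 16 rose and 18 fell in U2932 at 8 h, and 16 rose and 17 fell at 24 h. Over all genes tested in U2932, 36.7% rose and 39.0% fell at 8 h, and 37.8% rose and 45.3% fell at 24 h, and the members' counts lay near that background. In OCI-Ly7 at 8 h 6 rose and 15 fell, against 28.1% and 30.1% of all genes. At 24 h in that line 8 rose and 13 fell, against 21.8% and 23.2%. Under median scaling, 7 of the 16 rises in U2932 at 8 h, 8 of the 16 at 24 h and 4 of the 8 in OCI-Ly7 at 24 h turned their sign, while no rise in OCI-Ly7 at 8 h and no fall in any effect did so. On that scale 6 members were called higher and 21 lower in U2932 at 8 h, 6 and 28 at 24 h, 9 and 9 in OCI-Ly7 at 8 h, and 0 and 16 at 24 h. The median of all genes also moved on that scale, as given above. The share of all genes called on it is not given here. These counts, and those under median scaling below, are therefore not read as particular to the members.

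In U2932 18 members had every treated array above and 18 every treated array below every DMSO array at 8 h, against 38.1% and 40.1% of all genes, and 16 and 17 did so at 24 h, against 38.7% and 46.1%. In OCI-Ly7 these counts were 6 and 15 at 8 h, against 31.8% and 33.3%, and 8 and 18 at 24 h, against 26.4% and 28.3%.

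The hnRNPs were 23 of the 39 tested members and held most of the falls. Of them 8 (34.8%) rose and 12 (52.2%) fell in U2932 at 8 h, against 36.7% and 39.0% of all genes tested. At 24 h 7 (30.4%) rose and 14 (60.9%) fell, against 37.8% and 45.3%. In OCI-Ly7, 3 (13%) rose and 10 (43.5%) fell at each time, against 28.1% and 30.1% at 8 h and 21.8% and 23.2% at 24 h. The median change over the hnRNPs was -0.22 and -0.58 in U2932 at 8 h and 24 h, and -0.23 and -0.32 in OCI-Ly7, beside medians over all genes of 0.00, -0.08, 0.00 and 0.01. The 11 tested SR proteins split more evenly: 4 rose and 5 fell, then 5 rose and 3 fell in U2932, and 2 rose and 3 fell at each time in OCI-Ly7. All 3 CLK kinases rose in U2932 at both times, but under median scaling CLK3 and CLK4 were called lower there at both times.

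**Figure D1:**
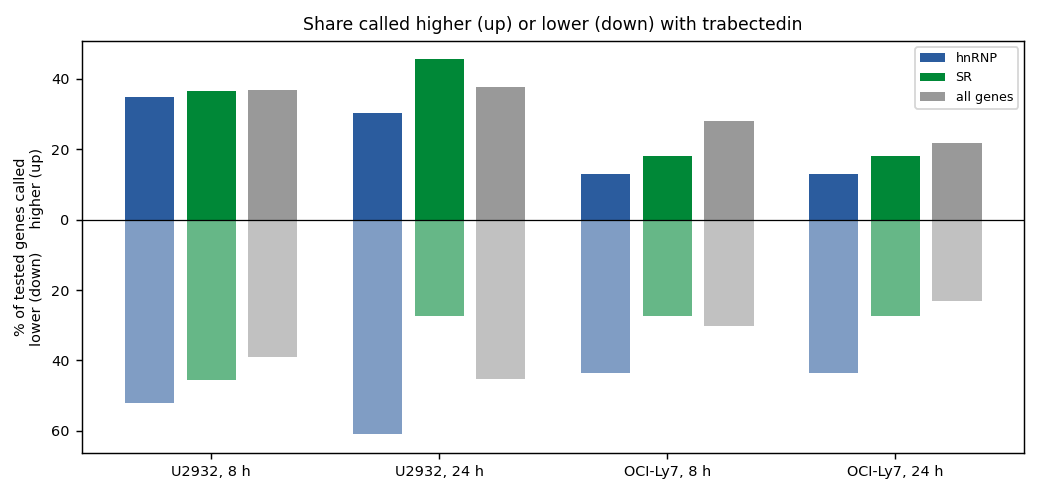
Share of the 23 hnRNPs, the 11 SR proteins and all 10455 genes tested that were called higher (bars above 0) or lower (bars below 0) with trabectedin, in percent, for each line and time. The hnRNP bars reach 60.9% lower in U2932 at 24 h, against 45.3% of all genes.

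**Figure D2:**
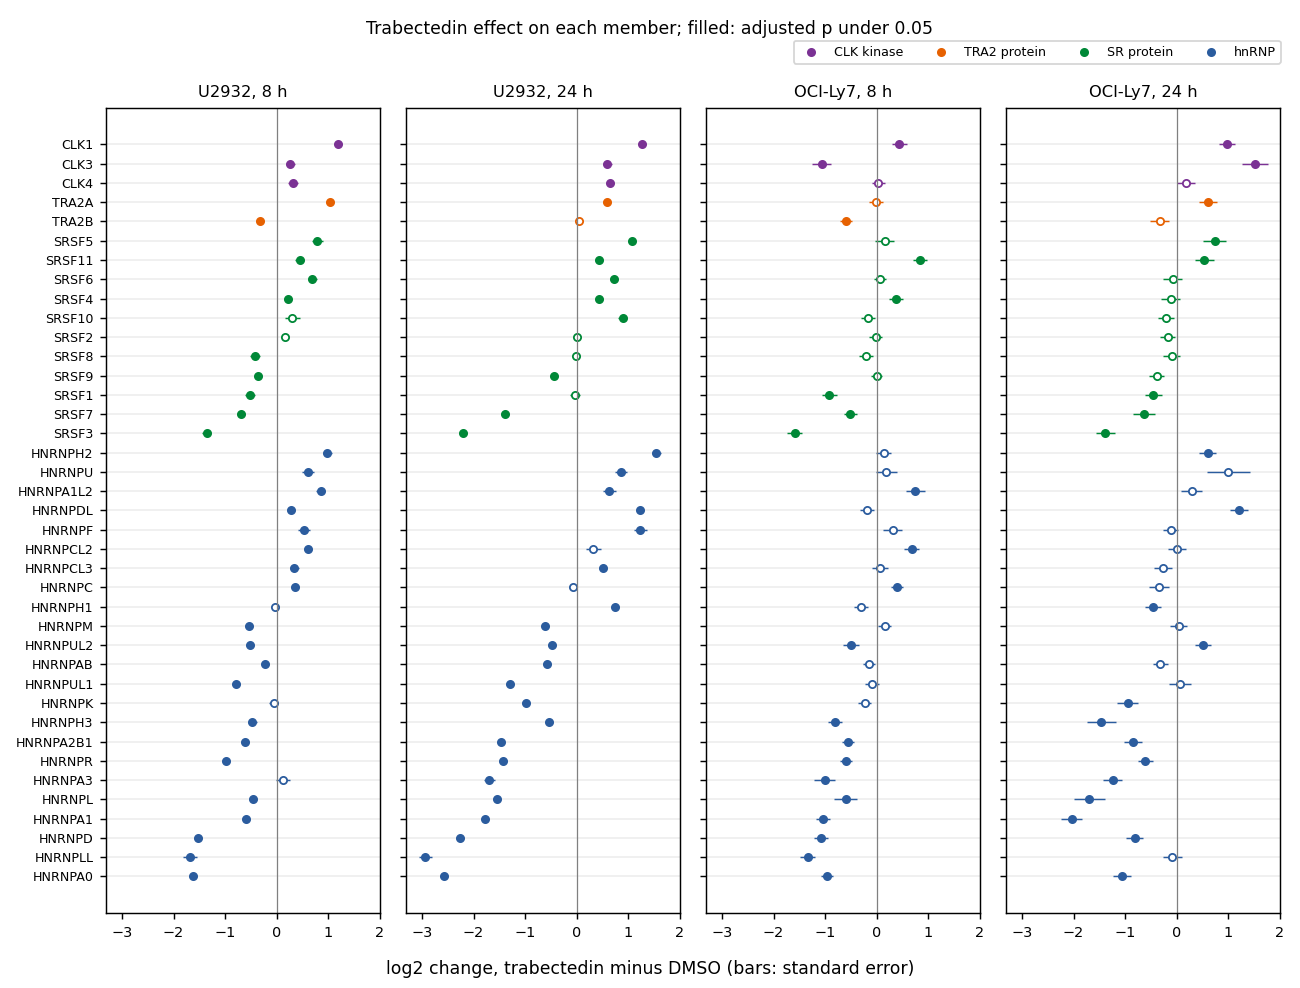
Log2 change with trabectedin (x axis, trabectedin minus DMSO, with standard error) for each of the 39 tested members (rows), in 4 panels by line and time. Filled points have an adjusted p under 0.05. HNRNPA0, HNRNPD and SRSF3 lie to the left of 0 in all 4 panels and CLK1 and SRSF11 to the right, SRSF11 turning negative under median scaling in all but OCI-Ly7 at 8 h.

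Across the 4 effects, 2 members rose in every one (CLK1, and SRSF11, which turned lower under median scaling in 3 of the 4) and 9 fell in every one on their brightest probe: SRSF3, SRSF7, HNRNPA0, HNRNPA1, HNRNPA2B1, HNRNPD, HNRNPH3, HNRNPL and HNRNPR. Of the 9, under median scaling the OCI-Ly7 8 h call was lost for SRSF7 (-0.43, adjusted p = 0.0548), HNRNPL (-0.51, adjusted p = 0.0957), HNRNPR (-0.20, adjusted p = 0.305) and HNRNPA2B1 (-0.076, adjusted p = 0.731), with no change of sign. Over all genes tested, 10.1% rose and 14.1% fell in all 4 effects. Another 3 members were called in both directions (CLK3, HNRNPH1 and HNRNPUL2), as were 11.4% of all genes. SRSF2, known as SC35 and used as a marker of nuclear speckles, was called in none on the quantile scale. Another 24 members were called in 1 direction in fewer than 4 effects.

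Promoters are shown for the 2 members that rose in all 4 effects and for 2 of those that fell in all 4, SRSF3 and HNRNPA0, so that the sequences beside the opposite responses can be read side by side. They are RefSeq sequences of 300 bases around the annotated start, build GRCh38.p14, written 5′ to 3′ on the gene's own strand: CLK1 at chr2:200864609-200864908 (minus strand), SRSF11 at chr1:70221130-70221429 (plus strand), SRSF3 at chr6:36594112-36594411 (plus strand) and HNRNPA0 at chr5:137754314-137754613 (minus strand). Capitals mark a CCAAT box (CCAAT or its reverse complement ATTGG), a GC box (GGGCGG or CCGCCC) or a TATA box (TATAAA or TTTATA).
CLK1: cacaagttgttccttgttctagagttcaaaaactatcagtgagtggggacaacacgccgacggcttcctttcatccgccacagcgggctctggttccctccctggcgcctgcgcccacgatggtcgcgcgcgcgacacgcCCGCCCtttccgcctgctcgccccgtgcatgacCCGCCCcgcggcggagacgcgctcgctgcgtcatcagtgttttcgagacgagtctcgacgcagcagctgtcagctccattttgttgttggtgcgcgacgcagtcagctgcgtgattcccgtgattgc
SRSF11: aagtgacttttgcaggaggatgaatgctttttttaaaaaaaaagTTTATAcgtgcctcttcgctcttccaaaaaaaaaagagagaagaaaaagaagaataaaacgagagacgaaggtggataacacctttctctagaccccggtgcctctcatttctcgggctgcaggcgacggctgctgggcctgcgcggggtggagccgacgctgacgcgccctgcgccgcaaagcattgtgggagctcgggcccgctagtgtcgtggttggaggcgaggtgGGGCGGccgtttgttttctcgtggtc
SRSF3: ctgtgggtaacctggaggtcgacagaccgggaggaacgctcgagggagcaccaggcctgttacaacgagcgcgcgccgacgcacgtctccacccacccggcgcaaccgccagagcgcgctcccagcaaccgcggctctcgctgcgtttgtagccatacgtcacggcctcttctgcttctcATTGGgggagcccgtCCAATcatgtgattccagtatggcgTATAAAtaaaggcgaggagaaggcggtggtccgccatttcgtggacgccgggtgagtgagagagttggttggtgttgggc
HNRNPA0: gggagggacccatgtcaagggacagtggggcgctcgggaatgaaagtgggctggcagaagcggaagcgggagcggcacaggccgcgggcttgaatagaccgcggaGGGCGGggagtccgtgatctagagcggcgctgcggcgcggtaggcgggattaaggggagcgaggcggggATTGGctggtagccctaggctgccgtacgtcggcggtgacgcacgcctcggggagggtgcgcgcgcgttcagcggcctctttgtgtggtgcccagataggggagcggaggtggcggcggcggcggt

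Promoters of 37 of the 41 members were in the table. A CCAAT box stood in 18 of the 37 (48.6%), against 35.7% of 27305 promoters of the same length, and a GC box in 24 (64.9%), against 44.6%. The E-box CACGTG stood in 8 (21.6%), against 7.4%, the ETS site CCGGAAG in 5 (13.5%), against 10.7%, and the TATA box in 5 (13.5%), against 12%. Neither the cyclic AMP response element TGACGTCA (2.0% of all promoters) nor the AP-1 element TGANTCA (7.8%) was found in these windows. Both strands were searched for every motif, and a CACGTG or TGACGTCA reads the same on both. Of the 8 matched members that fell in all 4 effects, 6 held a CCAAT box, as the SRSF3 and HNRNPA0 sequences above do, and HNRNPD and SRSF7 held none. A GC box stood in 5 of the 8, a TATA box in 2, an E-box in 2 and an ETS site in 1. Of the 2 that rose in all 4, 0 held a CCAAT box, 2 a GC box, 1 a TATA box and 0 an E-box or ETS site. These sets are too small to compare. SRSF11 turned lower under median scaling in all but OCI-Ly7 at 8 h, and the probes of HNRNPA2B1, 1 of the 8, disagreed. These members' promoters held a median of 30 CpG, against 14 over all promoters. A match describes the letters of the window and does not show that a factor binds there.

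On the quantile scale the CLK kinases rose with trabectedin more than they fell, and CLK1 was the steadiest of them. Under median scaling CLK3 and CLK4 were called lower in U2932 at both times, and CLK3 also in OCI-Ly7 at 8 h. CLK1 encodes the founding member of the family, which phosphorylates SR proteins and whose own transcript is partly kept unspliced in the nucleus. In U2932 at 8 h CLK1 read 11.22, 11.23 and 11.32 on trabectedin arrays, against 10.08, 10.03 and 10.07 on DMSO arrays. The 24 h values of CLK1 were 11.34, 11.41 and 11.39 on trabectedin arrays, against 10.19, 10.02 and 10.10 on DMSO arrays. Every treated array of U2932 lay above every DMSO array by about a full log2 unit. The change was 1.20 ± 0.07 (adjusted p = 2.38e-07) at 8 h, or 2.29-fold, and 1.28 ± 0.07 (adjusted p = 1.15e-06) at 24 h. In OCI-Ly7 the values were 10.88, 10.73 and 10.88 on trabectedin arrays, against 10.67, 10.32 and 10.19 on DMSO arrays at 8 h. At 24 h they were 10.67, 10.91 and 10.81 on trabectedin arrays, against 9.72, 9.90 and 9.81 on DMSO arrays. The groups did not overlap at either time, but at 8 h the lowest treated array lay close to the highest DMSO array. The change in OCI-Ly7 was 0.44 ± 0.14 (adjusted p = 0.0219) at 8 h and 0.98 ± 0.15 (adjusted p = 0.000848) at 24 h.

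The CLK1 call in OCI-Ly7 at 8 h was lost when DMSO replicate 2 or 3 or trabectedin replicate 1 or 3 was left out, with changes from 0.34 to 0.42 and adjusted p up to 0.0795. Under median scaling CLK1 stayed higher in all 4 effects, at 0.94, 0.78, 0.61 and 0.34, the last no longer called (adjusted p = 0.45). A second CLK1 probe changed by 1.40 ± 0.09 and 2.06 ± 0.07 in U2932, and by 0.32 ± 0.19 (adjusted p = 0.187) and 0.30 ± 0.20 (adjusted p = 0.252) in OCI-Ly7, where it was not called. With the mean of both probes the 8 h change in OCI-Ly7 was 0.38 and not called (adjusted p = 0.0623).

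CLK4, the closest relative of CLK1, rose in U2932 and gave smaller differences in OCI-Ly7. It read 6.85, 7.12 and 7.16 on trabectedin arrays, against 6.85, 6.68 and 6.64 on DMSO arrays in U2932 at 8 h. At 24 h in that line it read 7.09, 7.13 and 7.12 on trabectedin arrays, against 6.35, 6.54 and 6.48 on DMSO arrays. The lowest treated array met the highest DMSO array at 8 h, and the groups stood clear at 24 h. The change was 0.32 ± 0.10 (adjusted p = 0.0161) and 0.65 ± 0.07 (adjusted p = 6.17e-05). Under median scaling both turned negative and were called lower, at -0.49 (adjusted p = 0.00286) and -0.77 (adjusted p = 4.39e-05). Relative to the shifted median of all genes they were -0.07 and 0.13. In OCI-Ly7 CLK4 read 7.03, 7.08 and 7.21 on trabectedin arrays, against 7.23, 6.92 and 7.05 on DMSO arrays at 8 h. After 24 h it read 7.03, 6.80 and 6.68 on trabectedin arrays, against 6.62, 6.86 and 6.47 on DMSO arrays. The groups overlapped at both times, and the changes, 0.04 ± 0.13 (adjusted p = 0.827) and 0.19 ± 0.17 (adjusted p = 0.41), were not called. In U2932 at 8 h the CLK4 call was lost without trabectedin replicate 3 (0.26), DMSO replicate 2 (0.30) or DMSO replicate 3 (0.28).

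CLK3, a family member abundant in testis, was the member whose response differed most between the times in OCI-Ly7. In that line it read 9.0, 8.44 and 8.80 on trabectedin arrays, against 10.19, 9.69 and 9.56 on DMSO arrays at 8 h. The 24 h values of CLK3 were 9.96, 9.63 and 9.27 on trabectedin arrays, against 8.52, 8.11 and 7.68 on DMSO arrays. The treated arrays lay below all DMSO arrays at 8 h and above all of them at 24 h, and the DMSO arrays themselves were lower at 24 h than at 8 h. The change was -1.07 ± 0.19 (adjusted p = 0.000741) at 8 h and 1.52 ± 0.25 (adjusted p = 0.0012) at 24 h, the second at 0.74 and not called under median scaling (adjusted p = 0.255). The difference of these effects, 24 h minus 8 h, was 2.59 ± 0.34 (adjusted p = 0.000277). U2932 gave 8.39, 8.53 and 8.58 on trabectedin arrays, against 8.09, 8.28 and 8.33 on DMSO arrays at 8 h. At 24 h it gave 8.83, 8.57 and 8.67 on trabectedin arrays, against 8.06, 8.05 and 8.18 on DMSO arrays. These groups did not overlap, with narrow gaps at 8 h. The change in U2932 was 0.27 ± 0.09 (adjusted p = 0.023) and 0.60 ± 0.08 (adjusted p = 0.000333). Under median scaling both turned negative and were called lower, at -0.44 (adjusted p = 0.00488) and -0.65 (adjusted p = 5.9e-05).

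The second probe of CLK3 did not follow the first in OCI-Ly7. It read 6.75, 6.48 and 6.33 on trabectedin arrays, against 6.12, 5.76 and 6.25 on DMSO arrays at 8 h. At 24 h it read 6.03, 6.45 and 4.97 on trabectedin arrays, against 5.92, 6.0 and 6.54 on DMSO arrays. At 8 h the treated arrays were the higher ones, opposite to the brightest probe, and at 24 h the groups overlapped. Its change was 0.48 ± 0.16 (adjusted p = 0.0258) at 8 h and -0.34 ± 0.34 (adjusted p = 0.46) at 24 h. In U2932 it changed by 0.25 ± 0.12 (adjusted p = 0.077) and 0.30 ± 0.09 (adjusted p = 0.0164), in the direction of the brightest probe. With the mean of both probes, CLK3 in OCI-Ly7 was called at neither time, at -0.30 (adjusted p = 0.116) and 0.59 (adjusted p = 0.075). The call of CLK3 in U2932 at 8 h was lost without trabectedin replicate 2 (0.25), trabectedin replicate 3 (0.23) or DMSO replicate 1 (0.19), and with a spread shared over all 24 arrays (adjusted p = 0.234).

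**Figure D3:**
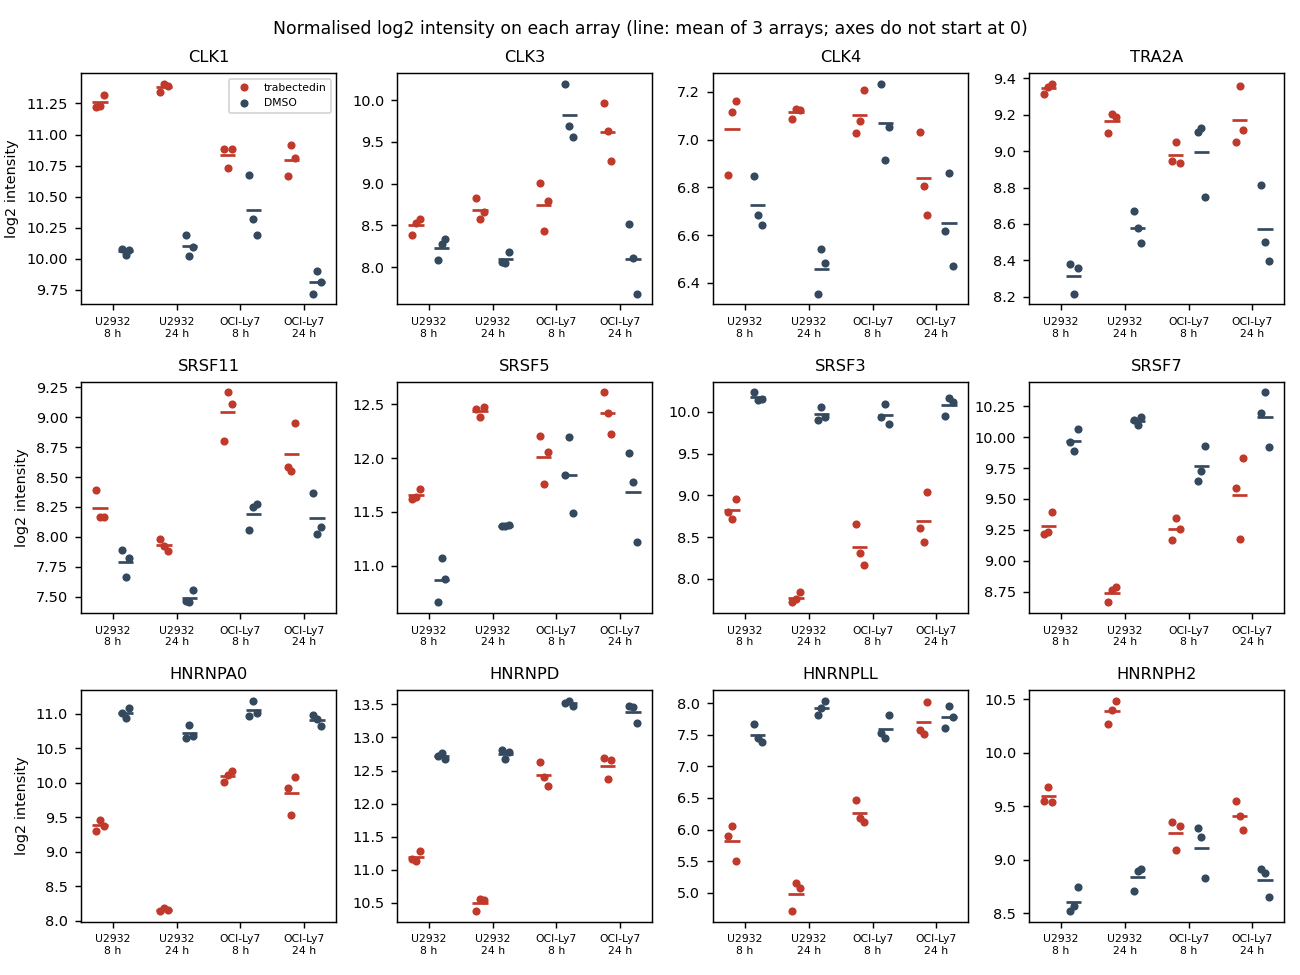
Normalised log2 intensity (y axis, not starting at 0) on each of the 24 arrays for 12 members, by line and time, with trabectedin arrays to the left of DMSO arrays and a bar at the mean of 3 arrays. SRSF3, HNRNPA0 and HNRNPD have every trabectedin array below every DMSO array in all 4 pairs, and CLK3 has its trabectedin arrays below DMSO at 8 h and above DMSO at 24 h in OCI-Ly7.

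TRA2A and TRA2B, SR-like activators that bind purine-rich exonic enhancers, were called in opposite directions in U2932 at 8 h. TRA2A rose there and read 9.31, 9.35 and 9.37 on trabectedin arrays, against 8.38, 8.22 and 8.36 on DMSO arrays. At 24 h it read 9.10, 9.20 and 9.19 on trabectedin arrays, against 8.67, 8.58 and 8.49 on DMSO arrays. Treated arrays were above DMSO arrays throughout, by a wider margin at 8 h. The change was 1.03 ± 0.08 (adjusted p = 1.07e-06) at 8 h and 0.58 ± 0.07 (adjusted p = 0.000136) at 24 h. Under median scaling the second was called lower, at -0.51 (adjusted p = 0.0014). In OCI-Ly7 TRA2A read 8.95, 9.05 and 8.94 on trabectedin arrays, against 9.10, 9.13 and 8.75 on DMSO arrays at 8 h. After 24 h it read 9.05, 9.36 and 9.11 on trabectedin arrays, against 8.82, 8.50 and 8.40 on DMSO arrays. The groups overlapped at 8 h and separated at 24 h. TRA2A changed by -0.02 ± 0.13 (adjusted p = 0.931) at 8 h, which was not called, and by 0.60 ± 0.18 (adjusted p = 0.0199) at 24 h, which turned to -0.15 under median scaling. The last call was lost without trabectedin replicate 2 (0.51), DMSO replicate 2 (0.57) or DMSO replicate 3 (0.51).

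TRA2B fell at 8 h in both lines. In U2932 it read 11.79, 11.73 and 11.66 on trabectedin arrays, against 11.99, 12.17 and 11.98 on DMSO arrays. In OCI-Ly7 it read 11.35, 11.41 and 11.46 on trabectedin arrays, against 12.13, 11.89 and 12 on DMSO arrays. All treated arrays lay below all DMSO arrays in both lines. The changes were -0.32 ± 0.08 (adjusted p = 0.00501) and -0.60 ± 0.12 (adjusted p = 0.00127). Under median scaling the OCI-Ly7 value was -0.25 and not called (adjusted p = 0.268). At 24 h TRA2B read 11.58, 11.73 and 11.71 on trabectedin arrays, against 11.53, 11.63 and 11.71 on DMSO arrays in U2932. In OCI-Ly7 at 24 h it read 11.32, 11.24 and 11.54 on trabectedin arrays, against 11.94, 11.75 and 11.40 on DMSO arrays. The groups overlapped in both lines at 24 h, and the changes of 0.05 ± 0.07 (adjusted p = 0.566) and -0.33 ± 0.18 (adjusted p = 0.176) were not called. Under median scaling the first was called lower, at -0.28 (adjusted p = 0.039), and with a spread shared over all 24 arrays the second was called lower (adjusted p = 0.0192).

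Among the SR proteins, SRSF3 had the largest fall in each of the 4 effects. It is the smallest of the family and also acts in mRNA export. In U2932 at 8 h SRSF3 read 8.80, 8.71 and 8.95 on trabectedin arrays, against 10.23, 10.14 and 10.15 on DMSO arrays. The values at 24 h were 7.71, 7.76 and 7.84 on trabectedin arrays, against 9.90, 10.06 and 9.94 on DMSO arrays. No treated array came within a log2 unit of a DMSO array. SRSF3 fell by 1.36 ± 0.08 at 8 h and by 2.20 ± 0.07 at 24 h on the log2 scale, the second being 4.59-fold lower (adjusted p = 1.13e-07). SRSF3 in OCI-Ly7 read 8.66, 8.31 and 8.17 on trabectedin arrays, against 9.94, 10.10 and 9.85 on DMSO arrays at 8 h. It read 8.61, 8.44 and 9.04 on trabectedin arrays, against 9.95, 10.17 and 10.11 on DMSO arrays at 24 h. The groups again stood well apart, with treated replicate 3 nearest to DMSO at 24 h. The changes were -1.59 ± 0.15 (adjusted p = 1.31e-05) and -1.38 ± 0.19 (adjusted p = 0.000449). A second SRSF3 probe was also called lower in all 4 effects, and on no treated array was it above background.

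SRSF7, a relative of SRSF3 that carries a zinc knuckle, fell in the same 4 effects. Its changes were -0.69 ± 0.08 (adjusted p = 4.04e-05) and -1.40 ± 0.06 (adjusted p = 5.17e-07) in U2932 at 8 h and 24 h. In OCI-Ly7 SRSF7 read 9.17, 9.35 and 9.26 on trabectedin arrays, against 9.65, 9.73 and 9.93 on DMSO arrays at 8 h. It read 9.59, 9.18 and 9.83 on trabectedin arrays, against 10.20, 10.36 and 9.92 on DMSO arrays at 24 h. Treated arrays were lower at both times, although treated replicate 3 and DMSO replicate 3 nearly met at 24 h. The changes in OCI-Ly7 were -0.51 ± 0.12 (adjusted p = 0.00481) and -0.63 ± 0.21 (adjusted p = 0.0326). The call at 24 h was lost without trabectedin replicate 1 or 2 or DMSO replicate 1 or 2, with changes between -0.78 and -0.45.

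SRSF11, a speckle protein also called p54, rose in all 4 effects on the quantile scale but turned lower under median scaling in 3 of them. In OCI-Ly7 at 8 h, where the sign did not turn, SRSF11 read 8.80, 9.21 and 9.11 on trabectedin arrays, against 8.05, 8.25 and 8.28 on DMSO arrays. The treated arrays stood clear above the DMSO arrays. The change there was 0.85 ± 0.14 (adjusted p = 0.00041). In U2932 SRSF11 changed by 0.45 ± 0.09 (adjusted p = 0.00168) at 8 h and 0.44 ± 0.06 (adjusted p = 0.000374) at 24 h. Under median scaling these were called lower, at -0.30 (adjusted p = 0.0345) and -0.98 (adjusted p = 1.9e-06). OCI-Ly7 at 24 h gave 0.54 ± 0.18 (adjusted p = 0.0338), with -0.23 under median scaling. Leaving out trabectedin replicate 1 or 3 or DMSO replicate 2 or 3 ended that call, with changes from 0.41 to 0.64.

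SRSF4, SRSF5 and SRSF6 are related SR proteins with a pair of RNA-recognition motifs. SRSF5 rose by 0.79 ± 0.10 (adjusted p = 7.42e-05) and 1.07 ± 0.06 (adjusted p = 1.4e-06) in U2932 and by 0.74 ± 0.23 (adjusted p = 0.0253) in OCI-Ly7 at 24 h, while its change of 0.16 ± 0.19 in OCI-Ly7 at 8 h was not called. SRSF6 rose in U2932 at both times, by 0.69 ± 0.09 and 0.72 ± 0.07, and its changes of 0.06 ± 0.11 and -0.07 ± 0.18 in OCI-Ly7 were not called. SRSF4 rose in U2932 at both times and in OCI-Ly7 at 8 h, by 0.22 ± 0.07, 0.44 ± 0.07 and 0.37 ± 0.13. Under median scaling SRSF5 in OCI-Ly7 at 24 h was at 0.29 (adjusted p = 0.62), and SRSF4 in U2932 at 0.099 (adjusted p = 0.399) and 0.075 (adjusted p = 0.486), none of them called. The SRSF5 call in OCI-Ly7 at 24 h was lost without trabectedin replicate 1 or 2 or DMSO replicate 2 or 3, with changes from 0.50 to 0.92. Calls of SRSF4 were lost in U2932 at 8 h without trabectedin replicate 1 or DMSO replicate 2 (0.19 to 0.24 over all 6 arrays left out). In OCI-Ly7 at 8 h SRSF4 lost its call without trabectedin replicate 2 or 3 or DMSO replicate 1 or 2 (0.27 to 0.47).

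SRSF1, the first SR protein described, fell by 0.51 ± 0.10 in U2932 at 8 h and by 0.92 ± 0.14 and 0.45 ± 0.16 in OCI-Ly7 at 8 h and 24 h on the log2 scale. In U2932 at 24 h its change of -0.03 ± 0.09 was not called, but under median scaling it was called lower, at -0.35 (adjusted p = 0.0323). The call at 24 h in OCI-Ly7 was lost in 5 of the 6 fits with 1 array left out, all but that without trabectedin replicate 1, with changes between -0.54 and -0.37. SRSF10, which represses splicing when dephosphorylated, was called in U2932 at 24 h, where it rose by 0.90 ± 0.09 (adjusted p = 3.28e-05; 0.065 and not called under median scaling, adjusted p = 0.493), and gave 0.31 ± 0.14, -0.16 ± 0.14 and -0.20 ± 0.16 in U2932 at 8 h and in OCI-Ly7 at 8 h and 24 h, none of them called. SRSF9, a relative of SRSF1, fell in U2932 at both times (-0.35 ± 0.07 and -0.43 ± 0.06, the first at -0.22 and not called under median scaling, adjusted p = 0.0653), and SRSF8, a relative of SRSF2, fell in U2932 at 8 h (-0.42 ± 0.09). SRSF2 changed by 0.17 ± 0.07 and 0.02 ± 0.06 in U2932 and by -0.02 ± 0.12 and -0.17 ± 0.15 in OCI-Ly7, and a p that misses the threshold does not show that it stayed level. Under median scaling SRSF2 was called higher at 8 h, at 0.30 (adjusted p = 0.0167) in U2932 and 0.43 (adjusted p = 0.0328) in OCI-Ly7. On that scale SRSF10 was called lower in OCI-Ly7 at 24 h, at -0.90 (adjusted p = 0.0459), and SRSF9 higher in OCI-Ly7 at 8 h, at 0.45 (adjusted p = 0.032). The quantile-scale changes of SRSF9 in OCI-Ly7, 0.00044 at 8 h and -0.39 at 24 h, were not called.

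The hnRNPs with the deepest falls in U2932, at both times, were HNRNPLL, HNRNPA0 and HNRNPD. HNRNPA0 binds AU-rich elements in mRNA. In U2932 at 8 h it read 9.30, 9.46 and 9.38 on trabectedin arrays, against 11.01, 10.94 and 11.09 on DMSO arrays. The 24 h values of HNRNPA0 were 8.14, 8.18 and 8.16 on trabectedin arrays, against 10.66, 10.84 and 10.68 on DMSO arrays. The treated arrays were far below the DMSO arrays at 8 h and lower again at 24 h. HNRNPA0 was 3.1-fold lower at 8 h and 5.91-fold lower at 24 h, with changes of -1.63 ± 0.08 (adjusted p = 6.5e-08) and -2.56 ± 0.07 (adjusted p = 5.61e-08). HNRNPA0 in OCI-Ly7 read 10.02, 10.11 and 10.17 on trabectedin arrays, against 10.97, 11.19 and 11.02 on DMSO arrays at 8 h. It read 9.93, 9.53 and 10.09 on trabectedin arrays, against 10.98, 10.93 and 10.83 on DMSO arrays at 24 h. All treated arrays lay below all DMSO arrays in this line too, by less. The changes were -0.96 ± 0.12 (adjusted p = 6.88e-05) and -1.06 ± 0.18 (adjusted p = 0.00138).

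HNRNPD, also called AUF1, promotes decay of AU-rich mRNAs. It read 11.17, 11.13 and 11.28 on trabectedin arrays, against 12.72, 12.76 and 12.68 on DMSO arrays in U2932 at 8 h. At 24 h in that line it read 10.38, 10.56 and 10.55 on trabectedin arrays, against 12.81, 12.68 and 12.78 on DMSO arrays. No treated array approached a DMSO array. The changes were -1.52 ± 0.07 (adjusted p = 6.89e-08) and -2.26 ± 0.08 (adjusted p = 1.31e-07). In OCI-Ly7 HNRNPD read 12.64, 12.40 and 12.27 on trabectedin arrays, against 13.52, 13.55 and 13.47 on DMSO arrays at 8 h. At 24 h the values were 12.69, 12.37 and 12.67 on trabectedin arrays, against 13.48, 13.45 and 13.22 on DMSO arrays. The order of the groups was the same, with changes of -1.08 ± 0.13 (adjusted p = 5.12e-05) and -0.81 ± 0.17 (adjusted p = 0.00366). A second HNRNPD probe gave -1.42 ± 0.07, -2.33 ± 0.08, -0.97 ± 0.12 and -0.85 ± 0.15 in the same 4 effects, all called lower.

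HNRNPLL, which controls alternative splicing of PTPRC (CD45) in lymphocytes, was the 1 tested member not detected on every array. In U2932 it read 5.90, 6.06 and 5.5 on trabectedin arrays, against 7.67, 7.44 and 7.38 on DMSO arrays at 8 h. At 24 h it read 4.71, 5.16 and 5.07 on trabectedin arrays, against 7.81, 7.91 and 8.03 on DMSO arrays. On the 3 treated arrays at 24 h it was not above background, and at 8 h it was detected on 2 of the 3. HNRNPLL was therefore at least 3.72-fold lower in U2932 at 24 h, a bound set by the dimmest detected probes, with a fitted change of -2.94 ± 0.13 (adjusted p = 4.02e-07). At 8 h the change was -1.68 ± 0.14 (adjusted p = 2.9e-06). HNRNPLL in OCI-Ly7 read 6.47, 6.18 and 6.12 on trabectedin arrays, against 7.52, 7.45 and 7.82 on DMSO arrays at 8 h. It read 7.57, 7.5 and 8.02 on trabectedin arrays, against 7.61, 7.95 and 7.78 on DMSO arrays at 24 h. The groups stood apart at 8 h and overlapped at 24 h. The change was -1.34 ± 0.15 (adjusted p = 3.2e-05) at 8 h, and -0.08 ± 0.19 (adjusted p = 0.761) at 24 h was not called. Under median scaling the 24 h change in OCI-Ly7 was called lower, at -0.81 (adjusted p = 0.0449).

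HNRNPA1, a core hnRNP that represses splice sites, read 9.57, 9.34 and 9.05 on trabectedin arrays, against 11.60, 11.42 and 11.05 on DMSO arrays in OCI-Ly7 at 24 h. All treated arrays lay far below all DMSO arrays. This was the largest fall among the members in that effect, at -2.04 ± 0.20 (adjusted p = 9.53e-05). The other changes of its brightest probe were -0.59 ± 0.08 (adjusted p = 7.56e-05) and -1.78 ± 0.06 (adjusted p = 1.05e-07) in U2932, and -1.04 ± 0.14 (adjusted p = 0.000128) in OCI-Ly7 at 8 h. Its second probe rose in U2932 at 8 h, by 0.51 ± 0.11 (adjusted p = 0.00196), and fell with the first at 24 h, with -1.84 ± 0.10, and the mean of both in U2932 at 8 h was -0.037 and not called (adjusted p = 0.712). In OCI-Ly7 the second probe gave -0.41 ± 0.14 (adjusted p = 0.0324) at 8 h and -0.30 ± 0.21 (adjusted p = 0.267) at 24 h. HNRNPA1 has many processed pseudogenes, some of which have probes here (HNRNPA1P10 and HNRNPA1P33) that were left out, and hybridisation of such copies and of the parent gene cannot be told apart.

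HNRNPL, which binds CA repeats, read 8.89, 8.82 and 8.47 on trabectedin arrays, against 10.03, 10.07 and 11.16 on DMSO arrays in OCI-Ly7 at 24 h. DMSO replicate 3 stood about a log2 unit above the other two. The change was -1.69 ± 0.29 (adjusted p = 0.00155). In OCI-Ly7 at 8 h the values were 9.09, 9.30 and 9.20 on trabectedin arrays, against 9.70, 9.30 and 10.40 on DMSO arrays. These groups overlapped, and the change of -0.60 ± 0.23 (adjusted p = 0.0437) lost its call in 5 of the 6 fits with 1 array left out, all but that without DMSO replicate 2, with changes between -0.85 and -0.30, and under median scaling as given above. In U2932 HNRNPL fell at 8 h and 24 h, with changes of -0.46 ± 0.08 (adjusted p = 0.000407) and -1.54 ± 0.08 (adjusted p = 9.04e-07).

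HNRNPH3, a small relative of the G-run binding hnRNPs, read 8.87, 8.41 and 9.56 on trabectedin arrays, against 10.15, 10.41 and 10.66 on DMSO arrays in OCI-Ly7 at 24 h. All 3 treated arrays were below the DMSO arrays, with replicate 3 nearest to them. The change was -1.46 ± 0.28 (adjusted p = 0.00259), and it was -0.80 ± 0.13 (adjusted p = 0.000371) at 8 h. U2932 gave -0.47 ± 0.08 (adjusted p = 0.000567) and -0.53 ± 0.07 (adjusted p = 0.000319). On its brightest probe HNRNPR, a relative of SYNCRIP, fell in all 4 effects, with changes of -0.98 ± 0.07 and -1.42 ± 0.08 in U2932 and -0.60 ± 0.12 and -0.61 ± 0.15 in OCI-Ly7. Of its 3 detected probes, 2 were called lower in U2932 at each time and in OCI-Ly7 at 8 h, and 1 in OCI-Ly7 at 24 h. The HNRNPR call at 24 h in OCI-Ly7 was lost without DMSO replicate 2 (adjusted p = 0.0532, with changes between -0.65 and -0.55 over the 6 arrays left out). HNRNPA3, a relative of HNRNPA1, fell in U2932 at 24 h (-1.69 ± 0.11) and in OCI-Ly7 at both times (-1.01 ± 0.21 and -1.24 ± 0.18), and HNRNPK, which binds C-rich RNA, fell at 24 h in both lines (-0.99 ± 0.06 and -0.95 ± 0.20). Under median scaling HNRNPA3 was also called lower in U2932 at 8 h, at -0.39 (adjusted p = 0.0137).

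On their brightest probes HNRNPM, HNRNPUL1 and HNRNPAB fell in U2932 at both times and, on the quantile scale, were not called in OCI-Ly7. HNRNPM, which binds G- and U-rich RNA, read 12.30, 12.37 and 12.35 on trabectedin arrays, against 12.87, 12.90 and 12.84 on DMSO arrays in U2932 at 8 h. In OCI-Ly7 at 8 h HNRNPM read 12.29, 12.07 and 12.29 on trabectedin arrays, against 12.10, 11.91 and 12.15 on DMSO arrays. The groups were apart in U2932 and overlapped in OCI-Ly7. HNRNPM changed by -0.54 ± 0.07 and -0.62 ± 0.06 in U2932, against 0.16 ± 0.13 and 0.04 ± 0.16 in OCI-Ly7. Under median scaling its 8 h change in OCI-Ly7 was called higher, at 0.54 (adjusted p = 0.0238). HNRNPAB, a relative of HNRNPD, changed by -0.22 ± 0.07 and -0.58 ± 0.07, against -0.15 ± 0.11 and -0.32 ± 0.15. The HNRNPAB call in U2932 at 8 h was lost without trabectedin replicate 1 or DMSO replicate 2 or 3, with changes between -0.25 and -0.19, and under median scaling (-0.0086, adjusted p = 0.94). HNRNPAB, HNRNPM and SRSF9 in U2932 at both times, and TRA2B and HNRNPA2B1 at 8 h, fell less than the median of all genes did under median scaling, standing 0.42, 0.08, 0.21, 0.09 and 0.03 above it at 8 h.

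A smaller set of hnRNPs rose. HNRNPH2, which binds runs of G, read 9.55, 9.68 and 9.54 on trabectedin arrays, against 8.52, 8.56 and 8.74 on DMSO arrays in U2932 at 8 h. The 24 h values of HNRNPH2 were 10.27, 10.40 and 10.49 on trabectedin arrays, against 8.71, 8.89 and 8.91 on DMSO arrays. It stood clear of DMSO at both times and was the member with the highest change at 24 h, 1.55 ± 0.09 (adjusted p = 1.53e-06). At 8 h it changed by 0.99 ± 0.09 (adjusted p = 3.48e-06). In OCI-Ly7 HNRNPH2 changed by 0.14 ± 0.15 (adjusted p = 0.451) at 8 h, not called, and by 0.60 ± 0.16 (adjusted p = 0.0132) at 24 h, which turned to -0.13 under median scaling. That call was also lost without trabectedin replicate 1, with changes between 0.52 and 0.67 over the 6 arrays left out. A second HNRNPH2 probe was called higher in U2932 at both times and in OCI-Ly7 at 8 h. In OCI-Ly7 at 8 h it read 6.86, 7.13 and 7.03 on trabectedin arrays, against 6.66, 6.77 and 6.64 on DMSO arrays. HNRNPF, its close relative, read 7.57, 7.99 and 7.58 on trabectedin arrays, against 6.52, 6.43 and 6.47 on DMSO arrays in U2932 at 24 h. These arrays did not overlap, and the change of 1.24 ± 0.12 (adjusted p = 3.74e-05) turned to -0.15 under median scaling. At 8 h in U2932 HNRNPF changed by 0.53 ± 0.11 (adjusted p = 0.00134), or -0.28 under median scaling, and in OCI-Ly7 by 0.31 ± 0.18 and -0.11 ± 0.15, neither called.

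HNRNPDL, a relative of HNRNPD, rose at 24 h in both lines. In OCI-Ly7 at 24 h it read 11.12, 10.92 and 11.12 on trabectedin arrays, against 10.10, 9.82 and 9.61 on DMSO arrays. U2932 at 24 h read 10.83, 10.75 and 10.68 on trabectedin arrays, against 9.53, 9.55 and 9.49 on DMSO arrays. Treated arrays were above DMSO arrays by about a log2 unit in both lines. The changes were 1.23 ± 0.07 (adjusted p = 1.19e-06) in U2932 and 1.21 ± 0.17 (adjusted p = 0.00059) in OCI-Ly7, the second at 0.57 and not called under median scaling, and at 0.31 and not called with the mean of both probes. At 8 h HNRNPDL changed by 0.28 ± 0.08 (adjusted p = 0.0118) in U2932, or -0.16 under median scaling, and by -0.19 ± 0.13 (adjusted p = 0.253) in OCI-Ly7. Its second probe gave -0.05 ± 0.08 and 0.77 ± 0.08 in U2932, but -1.34 ± 0.11 and -0.59 ± 0.30 in OCI-Ly7.

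HNRNPA1L2, HNRNPCL2 and HNRNPCL3 are near-identical copies of HNRNPA1 and HNRNPC, so their probes may read the parent genes and their values are uncertain. At 8 h in OCI-Ly7 HNRNPA1L2 read 7.75, 7.40 and 7.74 on trabectedin arrays, against 7.07, 7.10 and 6.46 on DMSO arrays. HNRNPCL2 read 7.08, 7.34 and 7.44 on trabectedin arrays, against 6.54, 6.49 and 6.81 on DMSO arrays. Both were above DMSO on every treated array. Their changes there were 0.75 ± 0.18 (adjusted p = 0.00487) and 0.68 ± 0.14 (adjusted p = 0.00183). In U2932 HNRNPA1L2 changed by 0.86 ± 0.09 (adjusted p = 1.06e-05) and by 0.64 ± 0.13 (adjusted p = 0.00214). Under median scaling the first was at 0.068 and not called (adjusted p = 0.634), and the second was called lower, at -0.80 (adjusted p = 0.00101). HNRNPCL2 changed by 0.61 ± 0.08 (adjusted p = 5.16e-05) at 8 h, or -0.07 under median scaling. HNRNPCL3 changed by 0.35 ± 0.09 and 0.52 ± 0.08 in U2932, both called. Under median scaling both were called lower, at -0.48 (adjusted p = 0.00156) and -0.94 (adjusted p = 1.23e-05).

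HNRNPH1 and HNRNPUL2 were called in opposite directions in the lines at 24 h. HNRNPH1, another binder of G runs, read 12.03, 12.18 and 12.08 on trabectedin arrays, against 11.40, 11.39 and 11.24 on DMSO arrays in U2932. In OCI-Ly7 it read 11.52, 11.15 and 11.37 on trabectedin arrays, against 11.78, 11.78 and 11.85 on DMSO arrays. The treated arrays lay above all DMSO arrays in U2932 and below all of them in OCI-Ly7. The changes were 0.75 ± 0.07 (adjusted p = 4.3e-05) and -0.46 ± 0.16 (adjusted p = 0.0417), and the second was lost in 5 of the 6 fits with 1 array left out, all but that without trabectedin replicate 1, with changes between -0.54 and -0.36. A second HNRNPH1 probe gave the same directions, at 1.37 ± 0.10 and -0.63 ± 0.18, both called. HNRNPUL2, a relative of HNRNPU, read 9.03, 8.96 and 9.18 on trabectedin arrays, against 9.53, 9.51 and 9.58 on DMSO arrays in U2932 at 24 h. In OCI-Ly7 at 24 h it read 10.19, 9.87 and 9.98 on trabectedin arrays, against 9.54, 9.47 and 9.50 on DMSO arrays. The treated arrays were all below DMSO in U2932 and all above it in OCI-Ly7. The change was -0.48 ± 0.07 (adjusted p = 0.000543) in U2932 and 0.51 ± 0.15 (adjusted p = 0.0242) in OCI-Ly7, a rise that turned to -0.17 under median scaling. At 8 h HNRNPUL2 fell in both lines, with -0.52 ± 0.08 and -0.50 ± 0.15, the second at -0.46 and not called under median scaling (adjusted p = 0.0936).

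Of these 2 genes' calls in OCI-Ly7, that of HNRNPUL2 at 24 h was lost without trabectedin replicate 1 or DMSO replicate 2 (0.42 to 0.58 over the 6 arrays left out), and that at 8 h without DMSO replicate 1 or 2 (-0.65 to -0.42).

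**Figure D4:**
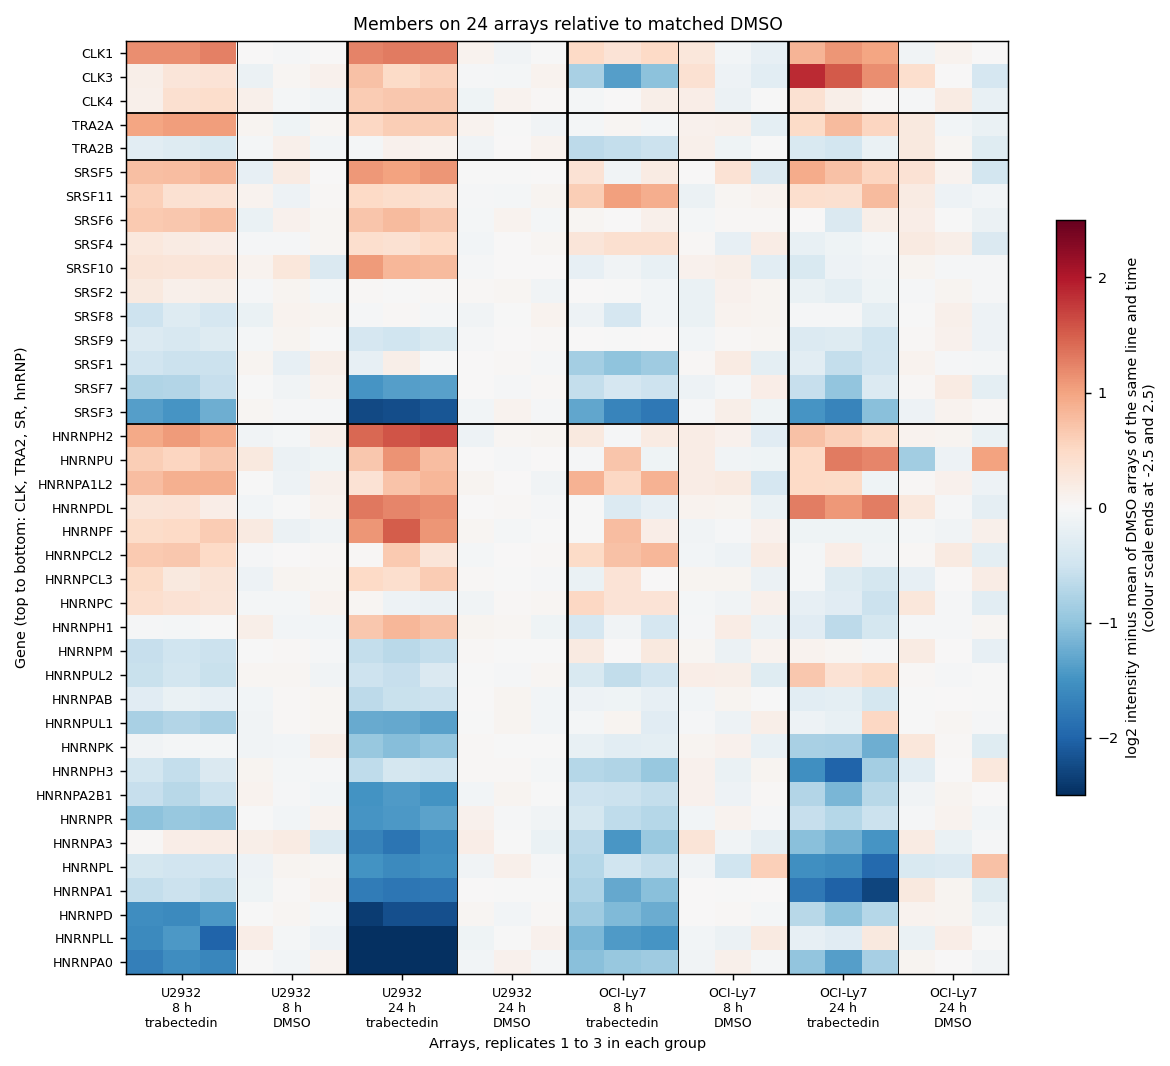
Each tested member (rows, by family) on each of the 24 arrays (columns, replicates 1 to 3 in each group), as log2 intensity minus the mean of the DMSO arrays of the same line and time, red above and blue below, with the colour scale ending at -2.5 and 2.5. HNRNPA0, HNRNPLL and HNRNPD are darkest in U2932 after 24 h of trabectedin, where HNRNPLL was not above background, and the HNRNPU and HNRNPL rows show the wide DMSO spread in OCI-Ly7 at 24 h.

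Several of these genes had probes that disagreed. Of the 20 members with at least 2 detected probes, 7 had probes called in opposite directions in at least 1 effect: CLK3, HNRNPA1, HNRNPA2B1, HNRNPC, HNRNPK, HNRNPU and HNRNPUL1. By effect the count was 6 (30%) and 3 (15%) in U2932 at 8 h and 24 h and 3 (15%) and 2 (10%) in OCI-Ly7, against 7.71%, 10.1%, 4.73% and 2.51% of the 2750 genes with at least 2 detected probes. The probe sequences were not used here, so where on the transcripts these probes lie is not given.

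HNRNPA2B1, a core hnRNP close to HNRNPA1, had 4 detected probes. Its brightest probe read 11.35, 11.45 and 11.36 on trabectedin arrays, against 12.78, 12.92 and 12.85 on DMSO arrays in U2932 at 24 h. Another probe read 9.05, 9.19 and 9.18 on trabectedin arrays, against 8.45, 8.33 and 8.37 on DMSO arrays in the same groups. The first had all treated arrays below DMSO and the second all above. The brightest probe fell in all 4 effects, with -0.60 ± 0.08 (adjusted p = 7.19e-05) and -1.47 ± 0.07 (adjusted p = 5.12e-07) in U2932 and -0.55 ± 0.12 (adjusted p = 0.00198) and -0.85 ± 0.17 (adjusted p = 0.00349) in OCI-Ly7. The other 3 probes gave positive changes in all 4 effects, from 0.22 ± 0.13, the 1 not called, to 1.18 ± 0.21. With the mean of all 4 probes the gene's change was positive in each effect. The probes of HNRNPA2B1 thus gave no single direction.

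HNRNPU, the scaffold attachment factor that binds chromatin-associated RNA, had a brighter probe that rose and a dimmer one that fell. The brighter read 9.37, 9.28 and 9.43 on trabectedin arrays, against 9.0, 8.61 and 8.64 on DMSO arrays in U2932 at 8 h. The dimmer read 6.83, 6.80 and 6.66 on trabectedin arrays, against 7.6, 7.8 and 7.78 on DMSO arrays. Treated and DMSO arrays did not overlap on either probe. The brighter changed by 0.61 ± 0.11 (adjusted p = 0.000673) and 0.86 ± 0.12 (adjusted p = 0.000257) in U2932, at 0.03 and -0.07 and not called under median scaling. The first was not called either with a spread shared over all 24 arrays (adjusted p = 0.0781). In OCI-Ly7 it gave 0.19 ± 0.20 (adjusted p = 0.455) and 1.01 ± 0.42 (adjusted p = 0.0788), neither called. The dimmer fell in all 4 effects, with -0.96 ± 0.09, -1.41 ± 0.08, -1.13 ± 0.13 and -1.33 ± 0.21.

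HNRNPC, which binds U tracts and forms the core of the hnRNP particle, showed a like split. Its brightest probe rose at 8 h in both lines, by 0.36 ± 0.08 (adjusted p = 0.00176) and 0.40 ± 0.12 (adjusted p = 0.0147), and was not called at 24 h (-0.07 ± 0.08 and -0.34 ± 0.19). The other probe read 8.07, 8.12 and 8.14 on trabectedin arrays, against 10.03, 9.82 and 9.90 on DMSO arrays in U2932 at 24 h. It read 8.21, 7.95 and 8.23 on trabectedin arrays, against 9.79, 9.62 and 9.31 on DMSO arrays in OCI-Ly7 at 24 h. Both sets of treated arrays were well below DMSO. That probe fell in all 4 effects, with -0.57 ± 0.09, -1.81 ± 0.08, -1.04 ± 0.12 and -1.45 ± 0.18. The rise of the brightest probe in OCI-Ly7 lost its call without trabectedin replicate 1 (0.34), DMSO replicate 1 (0.38) or DMSO replicate 2 (0.36), and in U2932 it shrank to 0.01 under median scaling. On that scale the brightest probe was called lower in U2932 at 24 h, at -0.83 (adjusted p = 5.08e-06).

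HNRNPUL1, another relative of HNRNPU, had 2 probes that fell in U2932 and 1 that rose in every effect. In U2932 at 24 h 2 probes rose and 2 fell, and in OCI-Ly7 at 24 h 1 probe rose and 1 fell. The dimmer of the 2 probes that fell in U2932 read 9.10, 9.20 and 9.52 on trabectedin arrays of OCI-Ly7 at 24 h. Its DMSO arrays there read 9.68, 10.61 and 11.18, all above the treated arrays. The brightest read 9.78, 9.85 and 9.78 on trabectedin arrays, against 10.50, 10.61 and 10.64 on DMSO arrays in U2932 at 8 h. The rising probe read 7.21, 7.08 and 7.11 on trabectedin arrays, against 5.92, 6.01 and 6.08 on DMSO arrays there. Neither probe had overlapping groups. The brightest changed by -0.78 ± 0.07 (adjusted p = 6.33e-06) and -1.30 ± 0.06 (adjusted p = 8.31e-07) in U2932, and by -0.09 ± 0.14 (adjusted p = 0.597) and 0.07 ± 0.21 (adjusted p = 0.82) in OCI-Ly7. With the mean of all detected probes the U2932 values were -0.12 (adjusted p = 0.128) and -0.079 (adjusted p = 0.309), neither called. The probe that rose in every effect gave 1.13 ± 0.08 and 1.68 ± 0.09 in U2932 and 0.76 ± 0.14 and 0.50 ± 0.18 in OCI-Ly7. For HNRNPK the opposite calls came at 8 h in U2932, where 1 of its 4 probes rose by 0.39 ± 0.11 and another had a change of -0.23 ± 0.07, with the brightest at -0.06 ± 0.08. The rising HNRNPK probe read 9.81, 10.06 and 9.84 on trabectedin arrays, against 9.40, 9.41 and 9.75 on DMSO arrays in those groups. The falling one read 11.52, 11.55 and 11.44 on trabectedin arrays, against 11.78, 11.72 and 11.70 on DMSO arrays. At 24 h 3 of its 4 probes fell in both lines.

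**Figure D5:**
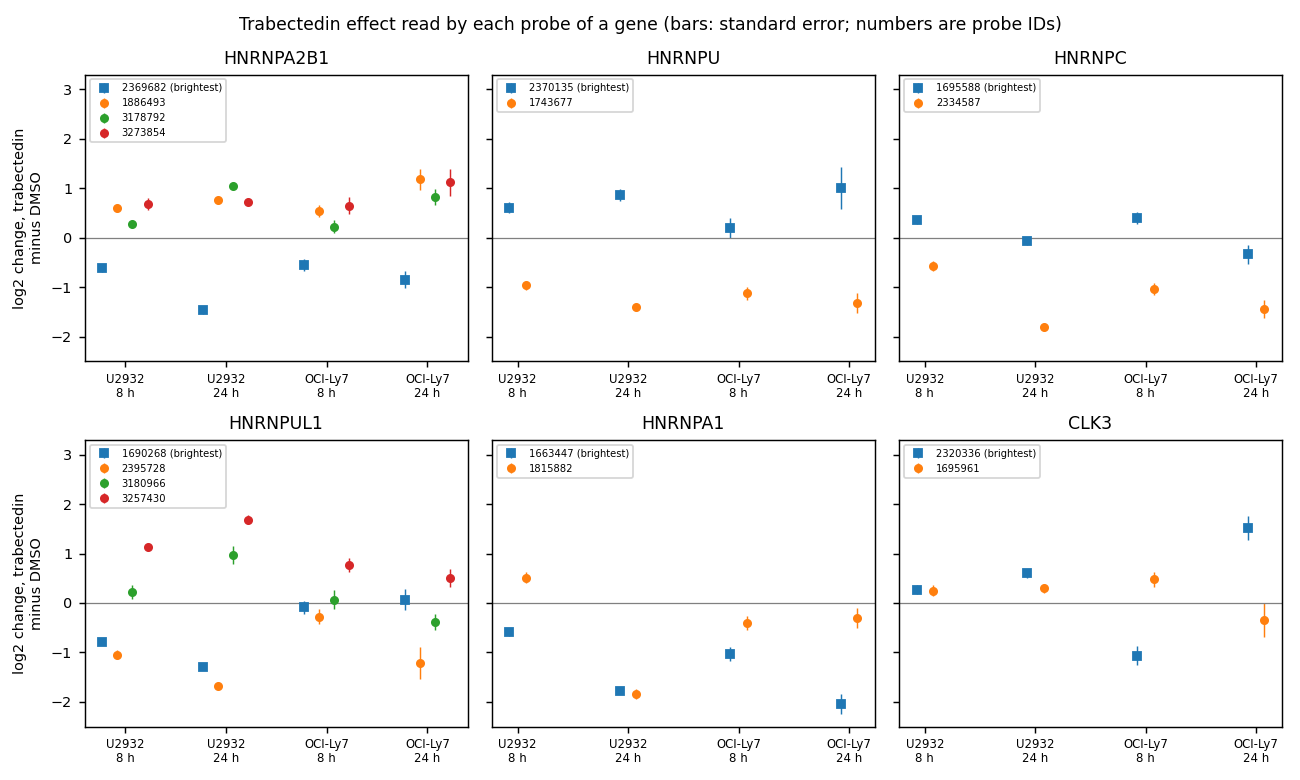
Log2 change with trabectedin (y axis, with standard error) for each detected probe of 6 genes in the 4 effects (x axis), with squares for the brightest probe. The brightest HNRNPA2B1 probe lies below 0 and the other 3 above it in all 4 effects, and the 2 HNRNPU probes lie on opposite sides of 0 in all 4, the brightest at -0.07 under median scaling in U2932 at 24 h.

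The responses were compared between lines, as the effect in U2932 minus that in OCI-Ly7. At 8 h 9 members had a higher and 6 a lower effect in U2932, against 18.7% and 25.7% of all genes, while under median scaling 0 had a higher and 16 a lower effect. The 3 highest differences were CLK3 at 1.34 ± 0.23 (adjusted p = 0.000328), HNRNPA3 at 1.13 ± 0.28 (adjusted p = 0.00416) and TRA2A at 1.04 ± 0.15 (adjusted p = 8.5e-05). The 3 lowest were HNRNPM at -0.69 ± 0.14 (adjusted p = 0.000984), HNRNPUL1 at -0.69 ± 0.15 (adjusted p = 0.00223) and HNRNPA0 at -0.67 ± 0.14 (adjusted p = 0.00111). None of the 3 highest was called under median scaling, with CLK3 at 0.56 (adjusted p = 0.108), HNRNPA3 at 0.53 (adjusted p = 0.154) and TRA2A at 0.44 (adjusted p = 0.0913). HNRNPUL1 was not called with the mean of its probes (-0.23, adjusted p = 0.246). HNRNPA3 illustrates the first set: it read 9.40, 9.54 and 9.56 on trabectedin arrays, against 9.53, 9.58 and 9.03 on DMSO arrays in U2932. In OCI-Ly7 it read 9.33, 8.52 and 9.06 on trabectedin arrays, against 10.29, 9.88 and 9.75 on DMSO arrays. The groups overlapped in U2932 and stood apart in OCI-Ly7. The U2932 change of HNRNPA3, 0.12, was not called, but under median scaling it was called lower, at -0.39 (adjusted p = 0.0137). The CLK1 difference at 8 h was 0.76 ± 0.16 (adjusted p = 0.00161), or 0.32 and not called under median scaling (adjusted p = 0.247), while at 24 h the difference of 0.29 ± 0.16 (adjusted p = 0.122) was not called.

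At 24 h 9 members had a higher and 11 a lower effect in U2932, against 22.5% and 34.9% of all genes, and 3 and 10 did so under median scaling. HNRNPLL was fitted at -2.86, but no treated U2932 array had it above background, and the bound given above for U2932 puts the difference at -1.81 or lower. HNRNPA0 and HNRNPD were at -1.5 ± 0.19 (adjusted p = 2.47e-05) and -1.45 ± 0.18 (adjusted p = 1.54e-05), both falling in either line and further in U2932. The highest differences were HNRNPF at 1.35 ± 0.18 (adjusted p = 3.24e-05), HNRNPH1 at 1.21 ± 0.17 (adjusted p = 4.56e-05) and SRSF10 at 1.10 ± 0.17 (adjusted p = 0.000112), of which HNRNPF was at 0.55 and not called under median scaling (adjusted p = 0.133). For SRSF10 U2932 read 10.25, 10.02 and 9.97 on trabectedin arrays, against 9.15, 9.20 and 9.19 on DMSO arrays. OCI-Ly7 read 8.65, 8.91 and 8.95 on trabectedin arrays, against 9.11, 9.0 and 9.0 on DMSO arrays. Treated arrays of SRSF10 were all above DMSO in U2932 and all slightly below it in OCI-Ly7. Chip and trabectedin cannot be told apart in the OCI-Ly7 part of these differences.

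Within U2932 the effects differed between the times in both directions. In the difference of the effects, 24 h minus 8 h, 15 members were lower and 10 higher, against 31.9% and 23.4% of all genes, and under median scaling 24 were lower and 2 higher. HNRNPA3 at -1.81 ± 0.19 (adjusted p = 8.03e-06) and HNRNPA1 at -1.19 ± 0.09 (adjusted p = 5.43e-07) were among the lowest. HNRNPLL is counted among the 15 with a fitted -1.26, but it was above background on no treated array at 24 h and on 2 of 3 at 8 h, so the size of that difference was not measured. SRSF1, SRSF8 and TRA2B fell at 8 h and were not called at 24 h, at -0.03, -0.01 and 0.05. Under median scaling each of them was called lower at 24 h, at -0.35 (adjusted p = 0.0323), -0.93 (adjusted p = 1.23e-05) and -0.28 (adjusted p = 0.039). The highest differences were HNRNPDL at 0.96 ± 0.10 (adjusted p = 7.53e-06), HNRNPH1 at 0.78 ± 0.11 (adjusted p = 8.03e-05) and HNRNPF at 0.71 ± 0.17 (adjusted p = 0.00416), the last at 0.12 and not called under median scaling (adjusted p = 0.659). HNRNPA3 read 8.73, 8.59 and 8.84 on trabectedin arrays, against 10.58, 10.40 and 10.25 on DMSO arrays in U2932 at 24 h. Its DMSO arrays were themselves higher at 24 h than at 8 h, by 1.03 ± 0.13 (adjusted p = 0.000281), the largest such change among the members. In U2932 14 members rose and 15 fell at both times, against 30.2% and 35.9% of all genes, a count that uses separate DMSO arrays for each time.

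In OCI-Ly7 5 members had a higher and 4 a lower effect at 24 h than at 8 h, against 16.4% and 14.1% of all genes, and under median scaling 1 had a higher and 16 a lower effect. Beside CLK3, described above, HNRNPDL at 1.40 ± 0.21 (adjusted p = 0.000578) and HNRNPLL at 1.26 ± 0.24 (adjusted p = 0.00209) were highest. The lowest were HNRNPA1 at -1.0 ± 0.25 (adjusted p = 0.00981), HNRNPC at -0.74 ± 0.22 (adjusted p = 0.0209) and HNRNPK at -0.72 ± 0.24 (adjusted p = 0.0338). The HNRNPK call was lost in 8 of the 12 fits with 1 array left out, with changes between -0.88 and -0.58, and that of HNRNPC without DMSO replicate 2 of 8 h (-0.70). HNRNPA1 was not called with the mean of its probes (-0.45, adjusted p = 0.152). Under median scaling HNRNPDL and HNRNPLL both gave 0.58 and neither was called.

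The DMSO arrays give the background of culture time. In U2932, 7 members were higher and 7 lower at 24 h than at 8 h, against 10.2% and 11.5% of all genes. HNRNPA3 was highest, and TRA2B lowest at -0.42 ± 0.08 (adjusted p = 0.00302), while the other 12 changes lay within 0.60 on the log2 scale in either direction. Under median scaling 4 were higher and 1 lower, and with a spread shared over all 24 arrays TRA2B was not called (adjusted p = 0.0619). In OCI-Ly7, 0 members were higher and 1 lower, against 2.08% and 3.11%; at an unadjusted p under 0.05 limma gave 1 higher and 8 lower. The 1 was CLK3 at -1.71 ± 0.24 (adjusted p = 0.0424), with arrays of 8.52, 8.11 and 7.68 at 24 h against 10.19, 9.69 and 9.56 at 8 h. Leaving out DMSO replicate 1 of 8 h (-1.52), DMSO replicate 2 of 8 h (-1.77) or DMSO replicate 2 of 24 h (-1.72) ended that call, as did median scaling (-1.55, adjusted p = 0.184) and no filter on dim probes (adjusted p = 0.0788).

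Between the lines in DMSO, U2932 minus OCI-Ly7 over both times, 5 members were higher and 16 lower in U2932, against 35.8% and 33.4% of all genes. HNRNPM was highest, at 0.71 ± 0.08 (adjusted p = 1.39e-06), with SRSF8 next at 0.35 ± 0.08 (adjusted p = 0.00115) and HNRNPA1L2 at 0.31 ± 0.11 (adjusted p = 0.0171). HNRNPH3 was lowest, at -1.35 ± 0.09 (adjusted p = 4.39e-09), with DMSO arrays of 9.23, 9.11 and 9.13 in U2932 against 10.63, 10.35 and 10.60 in OCI-Ly7 at 8 h. CLK3 and HNRNPD came next, at -0.80 ± 0.13 (adjusted p = 0.000102) and -0.71 ± 0.07 (adjusted p = 2.77e-07). These levels depend on the scale: under median scaling the median of all genes moved to 0.72, 33 members were called higher and 1 lower in U2932, CLK3 turned to 0.09 and HNRNPD was at -0.011 and not called (adjusted p = 0.908). Line and chip cannot be told apart here.

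Other genes of the same pathway were taken from lists by function, and those named below were chosen after their values were seen. Their values are on the quantile scale unless stated. The shares of all genes beside which these counts stand are 36.7% higher and 39.0% lower in U2932 at 8 h, 37.8% and 45.3% at 24 h, and 28.1% and 30.1%, then 21.8% and 23.2%, in OCI-Ly7. Of 9 tested kinases and importers of SR proteins, 3 rose and 5 fell in U2932 at both times, 1 rose and 4 fell in OCI-Ly7 at 8 h, and 3 rose and 4 fell at 24 h. The median change of these 9 was -0.32, -0.91, -0.08 and -0.12 in the same order. Under median scaling 1 rose and 6 fell in U2932 at 24 h and 0 rose and 4 fell in OCI-Ly7 at 24 h. SRPK1 and SRPK2 phosphorylate SR proteins in the cytoplasm. SRPK1 fell in all 4 effects, with -0.52 ± 0.07 and -1.21 ± 0.07 in U2932 and -0.90 ± 0.12 and -0.95 ± 0.18 in OCI-Ly7. SRPK2 was not above background on the treated U2932 arrays at 8 h, at least 5.49-fold lower, and was detected on 1 of 3 treated arrays at 24 h. In OCI-Ly7 it was detected on 1 of 3 treated arrays at 8 h and on 2 of 3 at 24 h. DYRK1A, another kinase of splicing factors, was at least 6.71-fold lower in U2932 at 24 h, where no treated array had it above background, and its relative DYRK3, which dissolves nuclear speckles, rose in all 4 effects, by 1.15 ± 0.07, 1.39 ± 0.08, 0.98 ± 0.18 and 1.40 ± 0.19. Under median scaling DYRK3 was not called at 24 h in U2932 (0.018, adjusted p = 0.894) or in OCI-Ly7 (0.66, adjusted p = 0.173). TNPO3, the importer of SR proteins, fell in all 4, with -0.99 ± 0.07 in U2932 at 8 h and -1.10 ± 0.16 and -0.62 ± 0.16 in OCI-Ly7, while in U2932 at 24 h it was above background on 1 of 3 treated arrays.

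Among 25 SR-related and speckle proteins, 9 rose and 6 fell in U2932 at 8 h, 12 and 7 at 24 h, and in OCI-Ly7 8 rose and 6 fell at 8 h, 7 and 3 at 24 h. Their median change was 0.08 and 0.29 in U2932 and -0.03 and 0.20 in OCI-Ly7. CCNL2, a cyclin of speckles, rose by 1.21 ± 0.11 and 1.94 ± 0.09 in U2932, and RSRC1, a small arginine and serine-rich protein, fell in all 4 effects, with -2.47 ± 0.16 in OCI-Ly7 at 8 h. Under median scaling 3 of this list rose and 14 fell in U2932 at 8 h, and 4 rose and 15 fell at 24 h. In OCI-Ly7 9 rose and 3 fell on that scale at 8 h, and 0 rose and 5 fell at 24 h. Among 30 other splicing regulators, 7 rose and 20 fell, then 7 and 21 in U2932, and in OCI-Ly7 6 rose and 15 fell, then 5 and 13. The median change of the 30 was -0.33 and -0.81 in U2932 and -0.32 and -0.28 in OCI-Ly7. Under median scaling 4 rose and 23 fell in U2932 at 24 h, and 0 rose and 14 fell in OCI-Ly7 at 24 h. MBNL1, which promotes adult splicing patterns in muscle, fell in all 4 effects, with -3.36 ± 0.07 and -3.89 ± 0.09 in U2932 and -2.36 ± 0.21 and -1.66 ± 0.32 in OCI-Ly7, while TARDBP (TDP-43), which represses cryptic exons, rose in all 4 effects, by 1.82 ± 0.08, 2.52 ± 0.06, 1.24 ± 0.13 and 0.93 ± 0.18, the last at 0.14 and not called under median scaling (adjusted p = 0.796). Of 11 factors of nonsense-mediated decay, the pathway that degrades decay-prone isoforms, 4 rose and 5 fell, then 6 and 4 in U2932, and 3 rose and 4 fell, then 2 and 3 in OCI-Ly7. The median change of the 11 was -0.02 and 0.39 in U2932 and 0.18 and 0.32 in OCI-Ly7. Under median scaling 1 rose and 7 fell in U2932 at 24 h, and 0 rose and 4 fell in OCI-Ly7 at 24 h. UPF2, a core factor, fell in all 4 effects, with -1.72 ± 0.07, -2.35 ± 0.08, -1.97 ± 0.16 and -0.84 ± 0.21. SMG8, a subunit of the SMG1 kinase complex, rose in all 4, by 1.45 ± 0.08, 1.82 ± 0.08, 1.10 ± 0.14 and 1.61 ± 0.24, the last at 0.84 and not called under median scaling (adjusted p = 0.187).

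Across the 39 members, Pearson's r between the 2 effects of a line was 0.89 in U2932 and 0.51 in OCI-Ly7, beside 0.90 and 0.60 over all genes. Between the lines it was 0.75 at 8 h and 0.69 at 24 h, beside 0.77 and 0.68. These are correlations across genes, which share the arrays of each group and are not independent replicates.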

How the data were processed

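Total RNA was hybridised to 24 single-colour Illumina bead arrays, 3 for each of 8 groups; per the labels' protocols RNA was column-purified and amplified to biotinylated cRNA. The deposited intensity table holds 1 unscaled value for each of 47231 probes and array, and the deposited log2 values equal those intensities after log2 and quantile normalisation to within 4.99e-09. The software that made them is not given in the sources used here.

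No detection p or control probes were used, so 638 probes of gene families taken to be silent in these cells (olfactory and taste receptors, keratin-associated proteins and the like) served as negative controls. Intensities were corrected by normexp (limma 3.58.1, R 4.3.3, offset 16), log2-transformed and quantile-normalised. Detection p was taken per array as the fraction of silent probes not dimmer than the probe. Probes under 0.01 on at least 3 of the 24 arrays were kept, and the probe with the highest mean stood for a gene, leaving 10455 genes from 13927 probes. Of all probes, 30113 had 1 symbol, 8 had several and 17110 had none in the probe table.

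The 4 trabectedin effects, their differences between lines and times, DMSO over time and the line difference in DMSO were fitted with lmFit and eBayes on the arrays compared, two-sided, and p-values were adjusted over the 10455 genes by Benjamini-Hochberg. The fit was tested on simulated data. Alternatives were no background correction, median scaling, no or a stricter filter on dim probes, the mean of all detected probes, a spread shared over 24 arrays, a replicate block and leaving out each array. Array chip could not be a block, since it does not vary within any effect other than that of OCI-Ly7 at 24 h, where it equals the groups.

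The members and lists were chosen with earlier results of these data known. Full values are given for CLK1, CLK3, CLK4, TRA2A and TRA2B, for the 3 highest and 3 lowest called members of each effect with detected, non-overlapping groups, for the 3 highest and 3 lowest of each difference, for the highest and lowest called members over time in DMSO, and for members with probes called in opposite directions; other members named were added for their roles. The number of arrays limits the precision. Promoters came from RefSeq (GRCh38.p14), and plots used matplotlib 3.10.9 under Python 3.11.15.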

Additional observations from a re-analysis of the deposited data

Results flagged for a closer look

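The values here are differences of log2 changes ± SE that passed limma's test of the difference itself, with an adjusted p under 0.05. Between the lines at 8 h, U2932 minus OCI-Ly7, they were CLK3 (1.34 ± 0.23), HNRNPA3 (1.13 ± 0.28), TRA2A (1.04 ± 0.15), HNRNPA0 (-0.67 ± 0.14), HNRNPM (-0.69 ± 0.14) and HNRNPUL1 (-0.69 ± 0.15). At 24 h they were HNRNPF (1.35 ± 0.18), HNRNPH1 (1.21 ± 0.17), SRSF10 (1.10 ± 0.17), HNRNPD (-1.45 ± 0.18), HNRNPA0 (-1.5 ± 0.19) and HNRNPLL (fitted at -2.86), in each of which the trabectedin arrays of OCI-Ly7 are alone on their chip. CLK3, HNRNPA3 and TRA2A at 8 h and HNRNPF, HNRNPH1 and SRSF10 at 24 h had the higher effect in U2932, and the hnRNPs with negative values had the lower. Under median scaling CLK3 (0.56), HNRNPA3 (0.53) and TRA2A (0.44) at 8 h and HNRNPF (0.55) at 24 h were not called, with adjusted p from 0.0913 to 0.154, and with the mean of its probes HNRNPUL1 was not called at 8 h (-0.23, adjusted p = 0.246).

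Between the times, 24 h minus 8 h, the differences in U2932 were HNRNPDL (0.96 ± 0.10), HNRNPH1 (0.78 ± 0.11), HNRNPF (0.71 ± 0.17), HNRNPA1 (-1.19 ± 0.09), HNRNPLL (fitted at -1.26) and HNRNPA3 (-1.81 ± 0.19). In OCI-Ly7 they were CLK3 (2.59 ± 0.34), HNRNPDL (1.40 ± 0.21), HNRNPLL (1.26 ± 0.24), HNRNPK (-0.72 ± 0.24), HNRNPC (-0.74 ± 0.22) and HNRNPA1 (-1.0 ± 0.25). HNRNPLL was above background on no treated U2932 array at 24 h, so its fitted values that use those arrays are not measured sizes, and the difference between lines at 24 h is bounded at -1.81 or lower. HNRNPF in U2932 (0.12, adjusted p = 0.659), and HNRNPDL and HNRNPLL in OCI-Ly7 (0.58 each), were not called under median scaling, and HNRNPA1 in OCI-Ly7 was not called with the mean of its probes (-0.45, adjusted p = 0.152). The CLK3 value in OCI-Ly7 rests on its brightest probe, the second probe having changed by 0.48 at 8 h and -0.34 at 24 h.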

How the results depend on the processing

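Scaling each array to its median moved the counts of members called most, with no share of all genes on that scale beside them. It gave 6 higher in U2932 at 8 h, 6 higher and 28 lower at 24 h, 9 lower in OCI-Ly7 at 8 h and 0 higher at 24 h. Between lines it gave 0 higher and 16 lower at 8 h and 3 higher at 24 h; between times 2 higher and 24 lower in U2932 and 1 higher and 16 lower in OCI-Ly7; over time in DMSO 4 higher and 1 lower in U2932 and 0 lower in OCI-Ly7; and 33 higher and 1 lower for the line difference in DMSO. It reversed CLK3 (-0.44) and CLK4 (-0.49) in U2932 at 8 h, and CLK3 (-0.65), CLK4 (-0.77), TRA2A (-0.51), TRA2B (-0.28), HNRNPF (-0.15) and HNRNPU (-0.073) at 24 h. TRA2A in OCI-Ly7 at 24 h (-0.15) and the line difference of CLK3 in DMSO (0.092) also reversed. The mean of all detected probes reversed HNRNPA2B1 to 0.24 and 0.27 in U2932 and to 0.21 and 0.57 in OCI-Ly7, HNRNPC at 8 h to -0.11 in U2932 and -0.32 in OCI-Ly7, HNRNPU in U2932 to -0.18 and -0.27, and HNRNPA1L2 between lines in DMSO to -0.0033. A spread shared over 24 arrays gave 8 higher and 8 lower between times in OCI-Ly7, and over time in DMSO 2 higher and 0 lower in U2932 and 2 higher and 8 lower in OCI-Ly7. For DMSO over time in OCI-Ly7, members called lower were 2 without background correction, 0 without the filter on dim probes and 3 with probes detected on every array. The causes were not tested. With 1 array left out, 3 to 5 members were higher in OCI-Ly7 at 8 h and 4 to 8 at 24 h. Between times in OCI-Ly7 4 to 8 were higher and 2 to 5 lower, and over time in DMSO 2 to 7 were lower in U2932 and 0 to 4 in OCI-Ly7. Same-numbered arrays correlated between -0.07 and 0.23, most of them under 0.1. No pairing by number was seen, which does not show that there was none. A replicate block gave 1 rather than 0 higher for DMSO over time in OCI-Ly7 and otherwise changed no count by over 1.5 times. Dim probes limit HNRNPLL and several probes of other genes to bounds.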
